A study of Mus musculus with 30 samples.

Results

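The genes examined were 10 enzymes and cofactors that place or remove repressive marks on chromatin and DNA: Ezh1, Ezh2, Suz12 and Eed of Polycomb repressive complex 2 (PRC2), the DNA methyltransferases Dnmt1, Dnmt3a and Dnmt3b with the cofactor Uhrf1, and the dioxygenases Tet1 and Tet3. They were chosen by gene symbol, with earlier results of these data known. All 10 were found among the 14997 uniquely named genes of the table of captured cells and among the 26005 genes of the table of cultured spheres. Captured libraries came from midbrain floor plate cells of Lmx1aCreERT2; R26TRAPC mice at embryonic day 11 (E11, 4 libraries), E13 (5), E18 (5) and postnatal day 70 (P70, 6). In this genotype a tamoxifen-inducible Cre is driven by Lmx1a, a gene of floor plate progenitors, so the label reaches the cells that expressed Lmx1a when Cre was active and their progeny. Every captured library carried it, with no unlabelled control. The 10 sphere libraries were labelled as adult and in vitro, 5 named MB and 5 named FB, with no genotype on their labels. The design text speaks of neurosphere cultures from the lateral ventricle and ependymal sphere cultures from the midbrain aqueduct, and the labels do not spell out MB and FB. Since the labels do not state whether replicate libraries stem from different animals or cultures, p-values measure the spread between libraries only.

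PRC2 trimethylates lysine 27 of histone H3, a mark of silenced developmental genes. Ezh2 or its paralog Ezh1 is the catalytic subunit, Eed binds the mark and stimulates the enzyme, and Suz12 holds the complex together. In DNA, Dnmt1 copies methylation onto the new strand behind the replication fork and is brought there by Uhrf1, which reads hemimethylated sites. Dnmt3a and Dnmt3b methylate DNA de novo, and Tet enzymes oxidise 5-methylcytosine. Ezh2, Dnmt1 and Uhrf1 are known as genes of dividing cells, and Ezh1, Dnmt3a and Tet enzymes are known to be expressed in non-dividing neural cells.

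Promoters were read from RefSeq (GRCm38.p6), and those printed are of the 4 genes with E2F letters in a window, and of Ezh1 as one without. They were picked for these letters and not for how the genes moved. Eed and Dnmt3b, which fell with the cell cycle genes below, have no such letters in their windows, and Suz12, which has them, fell in 1 of the embryonic steps. Each window runs from 250 bases before to 50 bases after an annotated transcription start. Capitals mark the E2F letters searched, which were TTTCCCGC, TTTCGCGC, TTTGCCGC and TTTGGCGC on both strands. E2F factors regulate genes for DNA replication. The windows were chr6:47594981-47595280 (minus strand) for Ezh2, chr17:56304063-56304362 (plus) for the second Uhrf1 start, chr9:20952574-20952873 (minus) for the third Dnmt1 start, chr11:79992856-79993155 (plus) for Suz12 and chr11:101226414-101226713 (minus) for Ezh1. The Uhrf1 and Dnmt1 windows shown lie at later starts inside the annotated genes, and the other 3 genes have a single window each. The remaining genes lie on chromosomes 7 (Eed), 12 (Dnmt3a), 2 (Dnmt3b), 10 (Tet1) and 6 (Tet3).
Ezh2: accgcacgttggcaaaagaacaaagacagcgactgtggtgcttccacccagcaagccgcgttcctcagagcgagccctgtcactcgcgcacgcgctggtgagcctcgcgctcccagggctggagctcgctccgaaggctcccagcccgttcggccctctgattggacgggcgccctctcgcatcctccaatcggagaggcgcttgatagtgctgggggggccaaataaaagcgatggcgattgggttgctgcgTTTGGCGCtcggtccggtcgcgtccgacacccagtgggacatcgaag
Uhrf1: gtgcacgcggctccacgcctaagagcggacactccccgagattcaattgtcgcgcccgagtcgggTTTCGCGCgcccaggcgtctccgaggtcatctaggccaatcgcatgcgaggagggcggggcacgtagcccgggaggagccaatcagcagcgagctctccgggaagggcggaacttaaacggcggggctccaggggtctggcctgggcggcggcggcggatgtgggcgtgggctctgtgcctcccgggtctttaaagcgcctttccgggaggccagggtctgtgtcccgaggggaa
Dnmt1: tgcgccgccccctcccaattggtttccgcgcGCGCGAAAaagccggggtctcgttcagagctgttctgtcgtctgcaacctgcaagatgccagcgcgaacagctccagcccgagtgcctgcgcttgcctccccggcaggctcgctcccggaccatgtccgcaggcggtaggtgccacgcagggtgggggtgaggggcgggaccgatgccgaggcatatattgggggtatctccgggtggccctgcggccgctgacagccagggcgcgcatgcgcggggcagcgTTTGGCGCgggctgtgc
Suz12: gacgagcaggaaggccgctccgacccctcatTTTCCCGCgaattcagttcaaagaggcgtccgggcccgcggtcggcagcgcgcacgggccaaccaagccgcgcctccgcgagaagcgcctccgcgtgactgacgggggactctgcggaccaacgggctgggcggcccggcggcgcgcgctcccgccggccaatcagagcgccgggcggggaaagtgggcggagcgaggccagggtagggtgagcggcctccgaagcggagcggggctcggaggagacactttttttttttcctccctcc
Ezh1: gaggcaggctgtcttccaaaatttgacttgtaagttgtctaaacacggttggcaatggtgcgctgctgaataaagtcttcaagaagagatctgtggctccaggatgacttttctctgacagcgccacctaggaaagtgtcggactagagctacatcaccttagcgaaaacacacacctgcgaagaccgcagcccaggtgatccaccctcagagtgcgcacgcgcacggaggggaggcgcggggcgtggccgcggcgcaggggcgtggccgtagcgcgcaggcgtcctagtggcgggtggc

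The 10 genes had 15 annotated windows, and the E2F letters were in 4 of them, 1 window each of Ezh2, Uhrf1, Dnmt1 and Suz12. Ezh2 held TTTGGCGC at position 4 after the start. Suz12 held TTTCCCGC, which began at position -219, and the Uhrf1 window held TTTCGCGC at -185. The Dnmt1 window held the letters at 2 places, at -219 on the minus strand and at 34 on the plus strand. The letters were in 2.26% of all 32851 windows of this length and in 19.6% of the 46 windows of listed cell cycle genes. The 4 windows with them had 64.3% to 71% GC, beside a median of 52.67% over all windows, and the shares are not matched for GC. The windows of Eed, Ezh1, Dnmt3a, Dnmt3b, Tet1 and Tet3 held none of these letters, which says only that the letters are not in these windows. Searches were also made for CHR (TTTGAA or TTCGAA) and CCAAT. CHR was in 26.7% of the 15 windows, those of Eed and Dnmt3b among them, beside 19.2% of all windows. CCAAT was in 53.3%, beside 37.4%. A match is a description of the sequence and not of binding.

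Captured values are the authors' normalized values (called units here). For most genes they behave as reads per length and depth, so levels of different genes were set side by side. Whole reads were recovered for 5 of the 10 genes, but not for Ezh2, Dnmt1, Dnmt3a, Uhrf1 or Tet1. Whether the values of those genes follow the same rule was not settled, which limits ratios and ranks that include them. Genes averaging under 1 unit at an age carry no value there. Reads recovered from these values came to 1188435 to 4461570 per library, and the P70 libraries were the shallowest. The sphere libraries held 6327198 to 9291311 counts. Midbrain floor plate markers were present at E11, with 12 of 12 listed, and 10 of 12 were listed at P70, where Shh and Corin, both floor plate markers, were not listed. The listed markers summed to 778 to 943 units at E11 and to 157 to 221 at P70. In FB libraries Foxa1 and Lmx1b were at 0 in every library. The listed cell cycle genes (52 genes of DNA replication and mitosis, none of them among the 10) measured proliferation. The mean log2(value + 1) of the 32 cell cycle genes listed at all ages was 6.83 ± 0.11 (SD, n = 4) at E11 and 4.998 ± 0.459 (n = 5) at E13. It was 2.95 ± 0.13 (n = 5) at E18 and 2.26 ± 0.24 (n = 6) at P70. All 26 mitosis genes were listed at E11 and 11 at P70, so this measure leaves out genes that fell below the listing limit. Among the E13 libraries, replicates 1 and 2 stood lowest at 4.52 and 4.51, and replicate 4 stood highest at 5.51. Ependymal, glial and other markers moved with age as well. The summed level of 12 ependymal markers was 107 to 380 units at E11 and 237 to 472 at E13. E18 libraries had 7670 to 11030 and P70 libraries 20634 to 30375. Microglial markers summed to 58.4 to 111 units at E11 and to 433 to 620 at P70, and erythroid markers to 8093 to 23397 units at E11 and 1.62 to 6.85 at E18. Astrocyte markers summed to 430 to 509 units at E11 and 6281 to 12971 at E13, then to 4417 to 5606 at E18 and 2365 to 2569 at P70. Neuron markers summed to 374 to 944 units at E11 and 1040 to 3580 at E13, then to 863 to 2221 at E18 and 519 to 822 at P70. The part of these cell types in the changes below was not tested. In such bulk libraries, fewer cells of a type and less RNA per cell cannot be told apart.

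**Figure D1:**
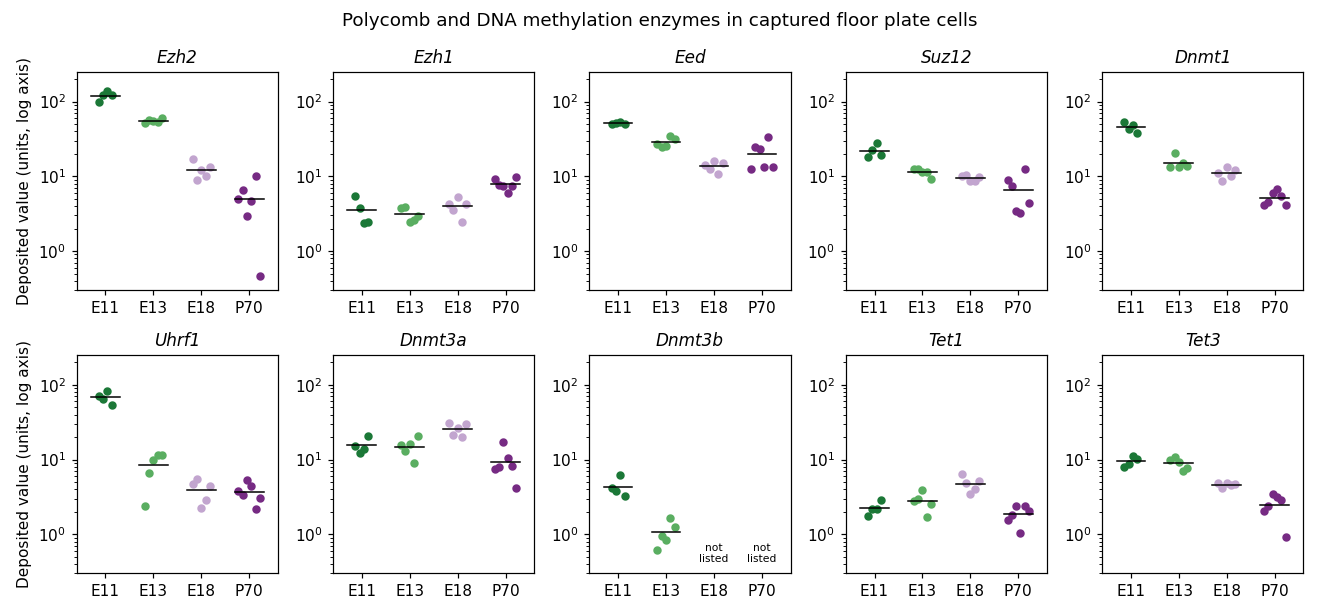
Deposited values in units (log axis) of each gene in every captured library by age, with points for libraries and a bar for the group mean. Ezh2 fell from 120 units at E11 to 4.97 at P70, and Ezh1 was highest at P70.

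Ezh2 and Ezh1, the alternative catalytic subunits of PRC2, moved in opposite directions over the series. Ezh2 stood at 97.4, 121, 140 and 123 units in the 4 E11 libraries, and at 51.1, 57.2, 54.5, 53.9 and 61 in the 5 E13 libraries. It stood at 17.1, 8.99, 12.1, 10.1 and 13.2 units in the 5 E18 libraries. The 6 P70 libraries ranged from 0.458 to 10.05 units with a median of 4.89. The E11, E13 and E18 libraries did not overlap, and the lowest P70 value was that of replicate 6. On the log2(value + 1) scale Ezh2 fell by 1.09 ± 0.37 (SE) from E11 to E13 (limma, adjusted p = 0.0394), by 2.12 ± 0.35 from E13 to E18 (adjusted p = 3.8e-05) and by 1.36 ± 0.33 from E18 to P70 (adjusted p = 0.0025). From E11 to P70 it fell by 4.57 ± 0.35 (adjusted p = 4.3e-10). The call from E11 to E13 was lost when any 1 library of either age was left out (adjusted p = 0.0551 to 0.108). It held when only the E11 and E13 libraries set the spread (adjusted p = 0.000107), and was lost with a pseudocount of 0.1 (adjusted p = 0.151).

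Ezh1 stood at 5.54, 3.77, 2.36 and 2.46 units at E11, at 3.74, 3.88, 2.47, 2.63 and 2.97 at E13, and at 4.33, 3.50, 5.26, 2.42 and 4.30 at E18. At P70 it ranged from 5.94 to 9.88 with a median of 7.54, above every earlier library. It did not pass between E11 and E13 (log2 change -0.09, 95% interval -0.58 to 0.40) or between E13 and E18 (0.25, -0.22 to 0.71), and it rose from E18 to P70 by 0.85 ± 0.21 (limma, adjusted p = 0.0030). From E11 to P70 it rose by 1.01 ± 0.23 (adjusted p = 0.000565). The ratio of Ezh2 to Ezh1 units within a library had a median of 41.1 at E11 and 20.5 at E13, then 3.07 at E18 and 0.676 at P70. At P70 it ran from 0.0463 to 1.35, and Ezh1 was above Ezh2 in every P70 library but replicate 5. Ezh2 shares 92 exon bases with the lincRNA Gm26625 on the opposite strand, and the protocol marks no strand.

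**Figure D2:**
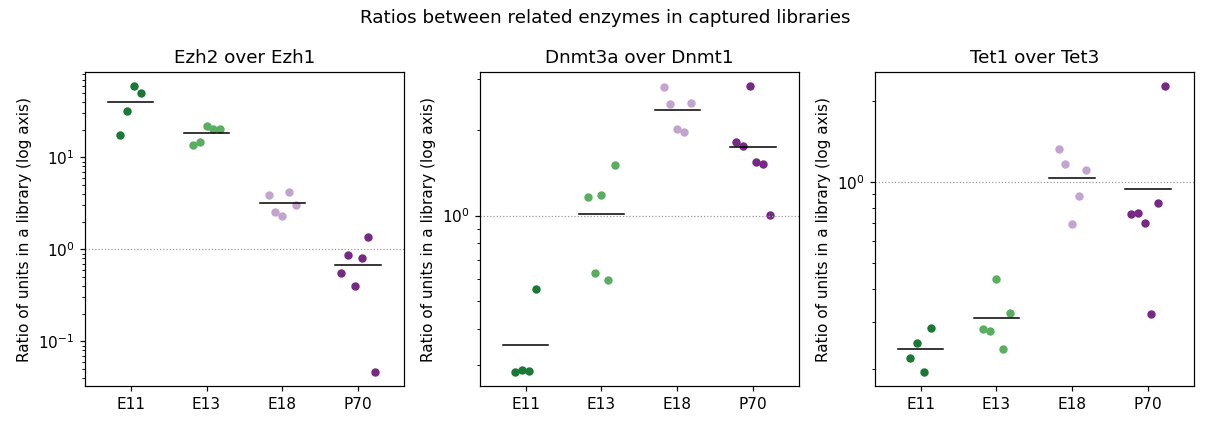
Ratio of 2 related enzymes within each captured library (log axis) by age, for Ezh2 over Ezh1, Dnmt3a over Dnmt1 and Tet1 over Tet3, with points for libraries, a bar for the mean and a dotted line where both enzymes are equal. The median of Ezh2 over Ezh1 passed from 41.1 at E11 to 0.676 at P70.

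Eed and Suz12, the non-catalytic core subunits, fell in the embryo too. Eed was close to 50 units in every E11 library (50.2 to 52.8), 24.8 to 34.7 at E13 and 10.8 to 16.0 at E18, with no overlap between these ages, and 12.5 to 33.1 with a median of 18.3 at P70. It fell by 0.83 ± 0.23 from E11 to E13 (limma, adjusted p = 0.0147) and by 1.02 ± 0.22 from E13 to E18 (adjusted p = 0.000696). It did not pass from E18 to P70 (log2 change 0.43, 95% interval -0.01 to 0.87). That step passed without P70 replicate 1 (0.54, limma, adjusted p = 0.0444) and when libraries were centred on their median (0.57, adjusted p = 0.0319). It passed too with array weights (0.62, limma, adjusted p = 0.0142) and under the replicate block (0.53, adjusted p = 0.0489). Suz12 was 18.3 to 28.3 units at E11 and 9.18 to 12.6 at E13, and fell by 0.88 ± 0.27 (limma, adjusted p = 0.0249), a call lost without E11 replicate 2 or 3 or E13 replicate 5 (adjusted p up to 0.0957). It then measured 8.69 to 10.3 units at E18 and 3.28 to 12.5, with a median of 5.89, at P70 and passed in neither later step. The step from E18 to P70 was -0.59 (limma, adjusted p = 0.0578) and passed without P70 replicate 1 (adjusted p = 0.033) or 5 (adjusted p = 0.0067). At E18 the Ezh2 libraries overlapped those of Eed and of Suz12, at means of 12.3, 13.7 and 9.52 units, and Eed was above Suz12 in every library, whereas at E11 Ezh2 was 120 units against 51.5 for Eed and 22.1 for Suz12. Eed shares 261 exon bases with E230029C05Rik and Suz12 shares 178 with Gm26563, each on the opposite strand.

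Counts over the 10 genes stand here beside those of all genes. From E11 to E13, 6 of 10 fell and 0 rose, where 20.4% of 11567 genes passed in either direction (11.2% fell and 9.26% rose). From E13 to E18, 5 of 9 fell and 2 rose, beside 47% of 11797 genes (24.8% fell and 22.2% rose). Without E13 replicate 4 only 3 of these 7 calls were left, and without E13 replicate 5 or E18 replicate 1 only 4. In the last step, to P70, 5 of 9 fell and 1 rose, beside 40.7% of 12353 genes (23.9% fell and 16.8% rose). The median log2 change was -0.85 over the 10 genes in the first step, beside -0.04 over all genes tested. Without Dnmt3b, which was not listed at E18 or P70, it was -0.43 and -0.75 over 9 genes in the later steps. The medians over all genes were -0.04 and -0.14 there. The median of all genes also fell from E11 to P70, by 0.30, where 64.6% of 11117 genes passed (40.1% fell and 24.5% rose). Over that span 7 of 9 of the genes fell, Ezh1 rose and Tet1 did not pass, and the fall of Dnmt3a was lost without E11 replicate 4 (limma, adjusted p = 0.079).

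**Figure D3:**
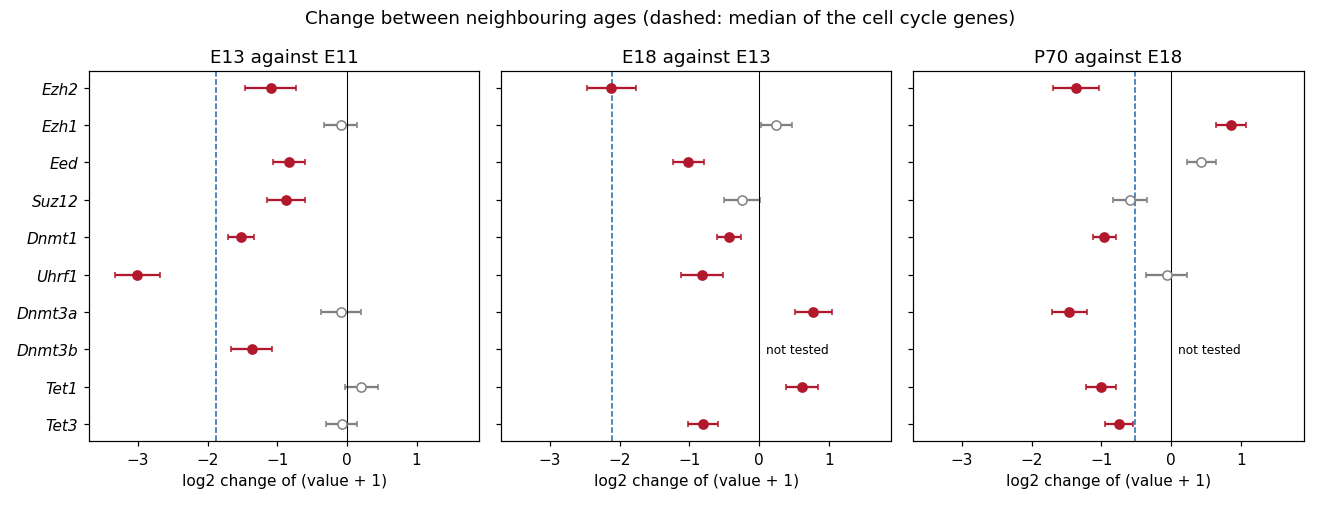
log2 change of (value + 1) of each gene between neighbouring ages, with bars of 1 standard error; filled red points passed and open grey ones did not. The dashed line is the median of the cell cycle genes in the same comparison.

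Counts of the other Polycomb genes are read beside the shares of all genes given above. Of the listed PRC2 partners, 1 of 9 fell from E11 to E13, Aebp2 (log2 change -0.97). From E13 to E18, 5 of 8 fell and 1 rose. Rbbp4, a histone-binding subunit, fell by 1.27 from 74.0 to 32.6 units, and Phf1, which binds H3K36 methylation, rose by 1.77 from 1.44 to 7.32 units. In the step to P70, 3 of 8 fell, with Jarid2, which helps recruit PRC2, falling by 1.22. Of the PRC1 genes, which ubiquitinate histone H2A, 3 of 26 fell and 2 rose from E11 to E13, near the shares of all genes (11.2% and 9.26%). Cbx2, a chromodomain subunit, fell by 1.58 from 21.6 to 6.67 units. From E13 to E18, 8 of 25 fell and 5 rose, and from E18 to P70, 4 of 24 fell and 5 rose. Cbx7, another chromodomain subunit, rose from 2.07 to 25.9 units at P70, by 3.19 ± 0.28 (limma, adjusted p = 9.3e-07). Of the erasers of these marks, 1 of 7 fell from E11 to E13, 1 of 6 rose from E13 to E18 (Kdm6b, an H3K27 demethylase, log2 change 1.13), and 1 of 6 rose from E18 to P70 (Usp16, 0.55).

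Dnmt1 and Uhrf1, the maintenance pair, fell most between E11 and E13. Uhrf1 stood at 71.6, 65.3, 81.7 and 53.4 units in the E11 libraries and at 2.40, 6.61, 9.96, 11.4 and 11.4 at E13. It stood at 4.75, 5.51, 2.28, 2.86 and 4.40 at E18 and from 2.21 to 5.27 with a median of 3.59 at P70. Every E11 library was above every later one, and E13 replicate 1 was the lowest at that age. Uhrf1 fell by 3.01 ± 0.32 to E13 (limma, adjusted p = 1.4e-06). It fell again by 0.82 ± 0.30 to E18 (adjusted p = 0.0308). The later call was lost without E13 replicate 3, 4 or 5 or without E18 replicate 3 or 4 (adjusted p up to 0.0905), and when only the E13 and E18 libraries were fitted (adjusted p = 0.0648). It did not pass from E18 to P70 (-0.06, 95% interval -0.67 to 0.54).

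Dnmt1 stood at 53.2, 42.3, 48.9 and 37.8 units at E11, at 13.5, 20.4, 13.5, 14.9 and 13.8 at E13 and at 10.9, 8.55, 13.3, 10.2 and 12 at E18. At P70 it ranged from 4.13 to 6.84 with a median of 4.998, below every E18 library. It fell by 1.53 ± 0.19 to E13 (limma, adjusted p = 7.5e-06) and by 0.96 ± 0.17 from E18 to P70 (adjusted p = 0.000117). The step from E13 to E18 passed at a change of -0.43 ± 0.17 (adjusted p = 0.0476), and this call was lost under 8 of the 10 left-out libraries, with adjusted p up to 0.139 without E13 replicate 2. It was also lost under the replicate block (limma, adjusted p = 0.0668) and with a pseudocount of 0.1 (adjusted p = 0.0536). The sorting of Dnmt1 below rests on this call.

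Dnmt3a, like Ezh1 and Tet1, fell in neither embryonic step. It stood at 15.0, 12.2, 14.0 and 20.9 units at E11, at 15.7, 12.8, 16.0, 8.90 and 20.8 at E13 and at 30.8, 21.1, 26.8, 20.1 and 29.8 at E18. The E18 libraries were above every E11 library but replicate 4, the highest there. At P70 it ranged from 4.19 to 17.1 with a median of 8.12. The E13 value did not differ beyond the spread from E11 (log2 change -0.08, 95% interval -0.67 to 0.51). Dnmt3a rose from E13 to E18 by 0.78 ± 0.27 (limma, adjusted p = 0.0203), a call lost without E13 replicate 4 (adjusted p = 0.0699) or E18 replicate 1 (adjusted p = 0.0508). It then fell to P70 by 1.46 ± 0.26 (adjusted p = 0.000124). At E18 Dnmt3a was the highest of the 9 listed genes, at 25.7 units, and did not overlap Eed, the next. The ratio of Dnmt3a to Dnmt1 had a median of 0.287 at E11 and 1.16 at E13, then 2.46 at E18 and 1.65 at P70. Dnmt3b was low, with 3.23 to 6.13 units at E11 and 0.617 to 1.66 at E13, fell by 1.37 ± 0.29 (limma, adjusted p = 0.0058) and was not listed at E18 or P70.

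Tet1 and Tet3 took different courses. Tet1 stood at 1.77, 2.18, 2.15 and 2.87 units at E11, at 2.82, 2.97, 3.97, 1.69 and 2.51 at E13 and at 6.43, 4.80, 3.44, 4.03 and 5.2 at E18, and ranged from 1.03 to 2.41 with a median of 1.94 at P70. It rose from E13 to E18 by 0.61 ± 0.23 (limma, adjusted p = 0.0305) and fell to P70 by 1.01 ± 0.22 (adjusted p = 0.000875). The rise was lost without E13 replicate 4 or 5 or E18 replicate 1, 2 or 5 (adjusted p up to 0.0896). Tet3 was 8.01 to 11.0 units at E11 and 7.11 to 10.7 at E13. E18 libraries had 4.14 to 4.94 and P70 libraries 0.909 to 3.44, with a median of 2.62. It fell by 0.81 ± 0.21 from E13 to E18 (limma, adjusted p = 0.0034) and by 0.75 ± 0.20 to P70 (adjusted p = 0.0053). The ratio of Tet1 to Tet3 had a median of 0.236 at E11 and 0.282 at E13, then 1.11 at E18 and 0.760 at P70, where it ran from 0.321 to 2.27.

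The related DNA methylation genes included several that fell in the embryo. Of 14 tested, 5 fell and 2 rose from E11 to E13, beside 11.2% and 9.26% of all genes. Hells, a chromatin remodeller that works with Dnmt1, fell by 2.01 from 27 to 6.30 units, and Parp1, a DNA repair enzyme, fell by 1.28 from 103 to 42.1 units. From E13 to E18, 7 of 14 fell and 1 rose, beside 24.8% and 22.2% of all genes. Cdca7, a partner of Hells, fell by 3.36 from 22.4 to 1.23 units. From E18 to P70, 3 of 12 fell, near the share of all genes (23.9%), and 4 rose, beside 16.8%. Gadd45b, which takes part in DNA repair and demethylation, rose by 2.83 from 3.69 to 33.4 units. The methyl-CpG readers are read beside the same shares. Of them, 0 of 6 passed from E11 to E13 with limma, 1 fell and 1 rose of 6 to E18, and 1 fell and 1 rose of 7 to P70.

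The cell cycle genes fell with age, 50 of 52 from E11 to E13, 44 of 46 from E13 to E18 and 11 of 32 from E18 to P70, where 2 rose. Genes were sorted by their calls in the embryonic steps. Ezh2, Eed, Dnmt1, Uhrf1 and Dnmt3b fell in both steps or fell and were then not listed, and were called the 5 that follow proliferation. The name gives direction only, and the share of all genes that meet this rule was not counted. The places of Ezh2 and Uhrf1, like that of Dnmt1, rest on calls that were lost when 1 library was left out. Dnmt3b averaged 1.06 units at E13, close to the 1 unit needed to be listed. Ezh1, Dnmt3a and Tet1 fell in neither step, and Suz12 and Tet3 fell in 1. The same libraries then gave each gene's change after the mean log2(value + 1) of the cell cycle genes was taken off in each library. This is no independent evidence for the sorting. Eed, though 1 of the 5, then rose between all neighbouring ages (log2 change 1.01, 1.03 and 1.11), so in the embryo it fell less than the cell cycle genes did.

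On that scale nearly all genes rose in the embryo, because the cell cycle genes fell more than most: 93.3% of genes passed from E11 to E13 (93.1% rose and 0.19% fell), and 93.1% from E13 to E18 (92.5% rose and 0.559% fell). A rise is therefore no property of the 10 genes. From E11 to E13, Ezh2 (0.74, 95% interval -0.02 to 1.5), Dnmt1 (0.31, -0.26 to 0.89) and Dnmt3b (0.47, -0.21 to 1.14) did not pass. Without E13 replicate 4 the Ezh2 value passed (0.88, limma, adjusted p = 0.0342), as it did with DNA replication genes alone as the measure (0.85, adjusted p = 0.0376) and under the replicate block (0.69, adjusted p = 0.0396). The 6 that rose were Ezh1, Suz12, Eed, Dnmt3a, Tet1 and Tet3, and the Suz12 call was lost with mitosis genes alone (limma, adjusted p = 0.094). Uhrf1 fell by a further 1.17 ± 0.30 (limma, adjusted p = 0.000911), one of 22 genes of 11567 that fell beyond the cell cycle genes. From E13 to E18, Ezh2 was the only 1 of 9 that did not rise (-0.07, 95% interval -0.78 to 0.65). Dnmt1 rose by 1.62 ± 0.26 and Uhrf1 by 1.23 ± 0.28 on this scale, and so fell less than the cell cycle genes did. From E18 to P70, where 42.8% of genes passed (38.5% rose and 4.31% fell), Ezh1 and Eed rose, by 1.54 ± 0.30 and 1.11 ± 0.22, and Dnmt3a fell by 0.78 ± 0.29 (limma, adjusted p = 0.0338), a call lost without any of 7 libraries of the 11 (adjusted p up to 0.0791). The Dnmt3a value was -0.12 with mitosis genes alone as the measure (limma, adjusted p = 0.742), -0.39 with a pseudocount of 0.1 (adjusted p = 0.297) and -0.67 under the replicate block (adjusted p = 0.103). Ezh2 passed in this step without P70 replicate 5 (-0.86, limma, adjusted p = 0.0384), and Uhrf1 passed without that library (0.77, adjusted p = 0.0235) or E18 replicate 2 (0.75, adjusted p = 0.0399). With DNA replication genes alone as the measure, Ezh2 (-1.03, limma, adjusted p = 0.024) and Dnmt1 (-0.62, adjusted p = 0.0432) fell. Uhrf1 rose with mitosis genes alone (1.28, limma, adjusted p = 0.0016) and with a pseudocount of 0.1 (1.10, adjusted p = 0.0124). From E11 to P70, where 99.1% of genes passed (98.8% rose and 0.288% fell), Ezh2 was again the only 1 of 9 that did not pass (95% interval -0.73 to 0.73), and it rose with mitosis genes alone as the measure (1.10, limma, adjusted p = 0.0088). The rise of Uhrf1, 0.68 ± 0.29 (limma, adjusted p = 0.027), was lost without E11 replicate 1, 2 or 4 or P70 replicate 4 (adjusted p up to 0.0735). It was 0.10 with DNA replication genes alone as the measure (limma, adjusted p = 0.741) and did not pass under the replicate block (adjusted p = 0.054).

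**Figure D4:**
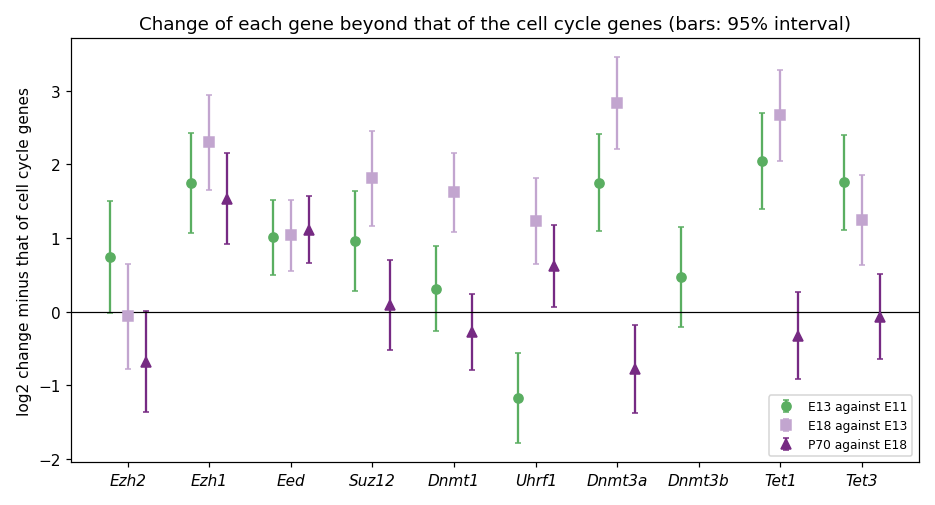
Change in log2(value + 1) of each gene after the mean of the cell cycle genes was taken off in each library, for the 3 steps between neighbouring ages, with 95% intervals. Ezh2 lies near 0 from E13 to E18, and Uhrf1 lies below 0 from E11 to E13.

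Genes with the course most like that of Ezh2 over the 4 age means were Pfn1, Tgs1, Plekho1, Tex30 and Racgap1, with Pearson r of at least 0.9998. These are descriptions over 4 ages, matched in the shape of the course and not in its size. Pfn1 went from 1536 units at E11 to 572 at P70, and Racgap1 from 91.0 to 1.41. A correlation of 0.99 or above was reached by 387 genes for Ezh2 and by 37 for Dnmt3a. Dnmt1 and Suz12, though sorted apart above, were each among the genes closest to the other (Pearson r = 0.9998).

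In the spheres the genes of maintenance methylation were lower in MB than in FB. Values are CPM, counts scaled to the size of the library, and the 10 genes are not compared with each other here. Uhrf1 stood at 119, 112, 109, 122 and 119 CPM in MB and 163, 162, 175, 162 and 144 in FB, without overlap. It fell by 0.50 ± 0.07 on the log2 scale (edgeR quasi-likelihood test, adjusted p = 2.15e-05). Dnmt1 stood at 172, 126, 169, 177 and 182 CPM in MB and 226, 264, 205, 201 and 204 in FB, again without overlap, a change of -0.44 ± 0.09 (edgeR, adjusted p = 0.0014). Eed was 24.5 to 31.5 CPM in MB and 34.0 to 45.5 in FB, a change of -0.59 ± 0.13 (edgeR, adjusted p = 0.0020). Tet1 went the other way, at 47.4, 46.1, 37.5, 36.0 and 41.8 CPM in MB and 23.4, 32.7, 25.3, 24.6 and 32.4 in FB, a rise of 0.57 ± 0.14 (edgeR, adjusted p = 0.0050).

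With these, 3 of 10 fell and 1 rose, beside 29.6% of 12886 genes that passed (14.3% fell and 15.3% rose). Ezh2 (-0.35, 95% interval -0.67 to -0.03, adjusted p = 0.0987, edgeR), Ezh1, Suz12, Dnmt3a, Dnmt3b and Tet3 did not pass. Suz12 was 18.3 CPM in MB replicate 1 and 6.42 to 9.52 in the others, and without that library Suz12 was lower in MB by 0.83 (edgeR, adjusted p = 0.0234). Ezh2 was lower without MB replicate 4 (log2 change -0.47, edgeR, adjusted p = 0.0222). Dnmt3a was 66.8 to 74.3 CPM in MB and 64.1 to 82.7 in FB (-0.02, 95% interval -0.23 to 0.18). Dnmt3b had 4 to 40 counts a library and Tet3 was 26.4 ± 4.91 CPM in MB and 26.2 ± 4.69 in FB (SD, n = 5 each).

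The cell cycle genes were also lower in MB, where 32 of 52 fell. Their mean log2(CPM + 1) was 6.49 ± 0.03 (SD, n = 5) in MB against 6.79 ± 0.06 in FB (n = 5). Relative to them, 44.8% of genes passed (40.3% rose and 4.45% fell), and Dnmt1 (-0.11, 95% interval -0.31 to 0.08), Uhrf1 (-0.17, -0.31 to -0.02, adjusted p = 0.0574, limma) and Eed (-0.26, -0.54 to 0.02) did not. Tet1 rose by 0.90 ± 0.14 (limma, adjusted p = 4.1e-05), Dnmt3a by 0.31 ± 0.10 (adjusted p = 0.0172) and Ezh1 by 0.88 ± 0.32 (adjusted p = 0.0331). The Ezh1 call was lost without MB replicate 4 or 5 or FB replicate 1, 3 or 4 (adjusted p up to 0.103), and the Dnmt3a call without FB replicate 2 (adjusted p = 0.0513) or with DNA replication genes alone as the cell cycle measure (adjusted p = 0.13). Uhrf1 passed without FB replicate 5 (-0.19, limma, adjusted p = 0.0423). With DNA replication genes alone as the measure, Uhrf1 (-0.27, limma, adjusted p = 0.0052) and Eed (-0.36, adjusted p = 0.0416) fell, and the Ezh1 call was lost (adjusted p = 0.0679). Of the related genes, 0 of 9 PRC2 partners passed (edgeR), 5 of 26 PRC1 genes fell, and 6 of 14 DNA methylation genes fell and 1 rose. In the same edgeR test 14.3% of all genes fell and 15.3% rose. Gadd45g, a stress and repair gene, fell by 1.3, and Gadd45a rose by 2.20. Ependymal markers summed to 40.5 to 59.0 CPM in MB and 22.3 to 30.2 in FB, and oligodendrocyte lineage markers to 3002 to 3682 CPM in MB and 3694 to 4203 in FB. Their part in these differences was not tested.

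**Figure D5:**
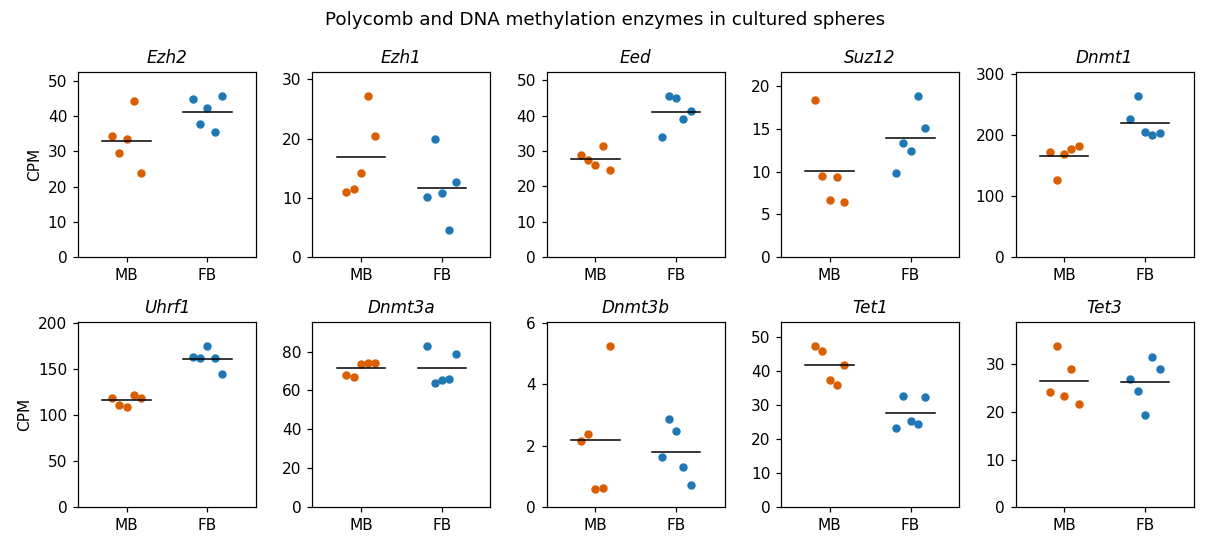
CPM of each gene in every sphere library, with points for libraries and a bar for the mean of the 5 libraries named MB and the 5 named FB; each axis starts at 0. Uhrf1, Dnmt1 and Eed were lower and Tet1 higher in MB, and Dnmt3a overlapped.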

How the data were processed

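Captured and sphere libraries were deposited in separate tables and tested apart. Per the labels' protocols RNA was reverse transcribed by Smart-seq2 without molecular identifiers and without strand. STAR 2.3, Salmon 1.6.0 and DESeq2 1.34.0 appear per the submitters' processing notes, their use unspecified. The authors deposited captured values in another, unnamed unit that behaves as reads per length and depth: for 78.0% of genes, values were whole reads within 0.01 of a read once scaled. The deposited sphere table holds whole-number counts per gene. Captured values were tested with limma 3.58.1 on log2(value + 1), 20 libraries in 1 fit, over genes listed at both ages. The filter on means below 1 unit was already in the deposited values. Sphere counts were tested with edgeR 4.0.16 (quasi-likelihood, TMM, filterByExpr). P-values were adjusted by the Benjamini-Hochberg method across every gene tested and called below 0.05. The fits were tested on simulated data. For changes relative to cell cycle genes, the library mean over those genes was subtracted; the spheres used limma on log2 CPM with a prior count of 2. Genes sharing a symbol (142 lines) were left out. List genes named in the text were those with the smallest p among genes averaging 5 units or 10 CPM or more, up to 3 a list and comparison. The 10 genes and the lists were chosen with earlier results of these data known. Alternatives were another pseudocount, filter, fit, scaling, replicate block, cell cycle list and each library left out.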

Additional observations from a re-analysis of the deposited data

Results flagged for a closer look

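In 58 groups of values of the 10 genes, 3 had a highest or lowest library farther from the rest than expected for the group's range. Chance gives such a library in about 1 in 20 groups. Suz12 was 18.3 CPM in MB replicate 1 and 6.42 to 9.52 in the other 4. Dnmt1 was 20.4 units in E13 replicate 2 and 13.5 to 14.9 in the other 4. Dnmt1 was 126 CPM in MB replicate 2 and 169 to 182 in the other 4.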

How the results depend on the processing

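Of 1369 values of the 10 genes under other settings, 1239 kept their direction and their side of the threshold, 62 lost a call, 21 gained one and 47 changed sign. With 1 library left out, 4 to 5 of the 10 genes passed from E11 to E13, and 3 to 7 of 9 from E13 to E18. In the latter step 3 passed without E13 replicate 4, 4 without E13 replicate 5 and 4 without E18 replicate 1. From E11 to E13, 3766 genes passed with only the 2 ages fitted and 4836 with array weights, against 2364. From E18 to P70 relative to cell cycle genes, 5 of 9 passed with DNA replication genes only.

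The changes of sign were of values that had not passed. Array weights gave Dnmt3a 0.0891 from E11 to E13. Relative to cell cycle genes, Dnmt3b became -0.0767 from E11 to E13 with a pseudocount of 0.1. Ezh2 became 0.575 with mitosis genes only and 0.0341 with that pseudocount from E13 to E18, 1.10 (adjusted p = 0.0088, limma) and 0.307 from E11 to P70, and 0.0686 with mitosis genes only in the spheres. From E18 to P70, Suz12 became -0.258 with DNA replication genes only, Dnmt1 0.383, Tet1 0.334 and Tet3 0.593 with mitosis genes only, and Dnmt1 0.0934 and Tet3 0.184 with the pseudocount. Uhrf1 became 0.0736 from E18 to P70 when libraries were centred on their median. In the spheres, library size alone gave Dnmt3a 0.0012 and Tet3 0.0087, and no filter on low counts gave Tet3 0.00049. The cause was not tested.

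With 1 library left out, these changes crossed 0. From E11 to E13, Ezh1 ran from -0.215 to 0.106 and Dnmt3a from -0.209 to 0.0751. From E18 to P70, Uhrf1 ran from -0.202 to 0.0455. In the spheres, Dnmt3a ran from -0.0635 to 0.0389, Dnmt3b from -0.346 to 0.512 and Tet3 from -0.122 to 0.0659. Relative to cell cycle genes, Ezh2 ran from -0.203 to 0.0668 from E13 to E18, from -0.185 to 0.290 from E11 to P70 and from -0.150 to 0.0764 in the spheres. On that scale Suz12 ran from -0.0579 to 0.274 and Tet3 from -0.175 to 0.0283 from E18 to P70, and Dnmt3b from -0.0471 to 0.606 in the spheres.

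Deviations of same-numbered libraries from their groups had correlations of -0.146 to 0.239. These gave no clear sign that the numbers pair libraries, and with so few libraries cannot exclude it. P70 replicate 6 shares its number with no library of another age and gets no weight in that fit. With the replicate block, 6 of 10, 6 of 9 and 7 of 9 genes passed in the 3 steps and 4 of 10 in the spheres. Under the replicate block Tet3 became 0.0283 from E18 to P70 and Ezh2 0.239 from E11 to P70 relative to cell cycle genes, and Dnmt3b became -0.0424 in the spheres.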
